A study of Mus musculus with 12 samples.

Results

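The genes described are 32 genes of glucose transport, glycolysis and lactate handling, of the 31053 genes counted in each library. They were taken as a fixed list, and no measured value entered the choice. The list holds the glucose carriers Slc2a1 and Slc2a3, the hexokinases Hk1, Hk2 and Hk3, Gpi1, the phosphofructokinases Pfkl, Pfkm and Pfkp and their regulators Pfkfb3 and Pfkfb4, the aldolases Aldoa and Aldoc, Tpi1, Gapdh, Pgk1, Pgam1, the enolases Eno1, Eno2 and Eno3, Pkm, the lactate dehydrogenases Ldha and Ldhb, the lactate carriers Slc16a1 and Slc16a3, the pyruvate dehydrogenase kinases Pdk1, Pdk2 and Pdk3, and the side enzymes Bpgm, Pgm1, Pgm2 and Minpp1. They were followed in single cells of the stromal vascular fraction (SVF), the cells that collagenase frees from white fat once the floating adipocytes are skimmed off, in epididymal (eWAT) and inguinal (iWAT) depots of male mice aged 12 weeks. WT-Veh mice were lean C57BL/6J animals given methylcellulose vehicle, ob/ob-Veh mice were obese leptin-deficient Lepob/Lepob animals given the same vehicle, and ob/ob-Rosi mice were Lepob/Lepob animals given rosiglitazone, a PPARγ agonist, at 30 mg/kg per gavage. All 3 groups were gavaged each morning and evening for 3 days. Each group had 2 libraries per depot, 12 in all, described by their labels as biological replicates. The ob mutation is present in every cell from birth, and 300 mg of small biopsies stood for a whole depot.

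Glycolysis splits glucose into pyruvate and yields ATP without oxygen. Glucose enters through carriers of the Slc2a family, is held in the cell by hexokinase, is committed at phosphofructokinase and leaves the pathway as pyruvate, which either enters mitochondria or is reduced to lactate by lactate dehydrogenase and exported by the monocarboxylate carriers of the Slc16a family. Most steps have several isoenzymes, encoded by separate genes, and cell types are known to differ in which of them they use. In adipose tissue the pathway is known to feed inflammatory activation of macrophages and the growth of vessels, and several of its genes are textbook targets of the hypoxia-inducible factor HIF-1 whose binding motif is ACGTG or GCGTG.

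Promoter stretches are shown here for the members whose changes carry the comparisons described further on, because a shared short motif is the textbook link between them. Each is 30 bases placed on the match to ACGTG or GCGTG nearest before an annotated start site, so each holds a match by construction. The bases are read 5′ to 3′ on the strand of the gene from RefSeq promoters on GRCm38.p6. Capitals mark ACGTG or GCGTG, or their reverse complements CACGT and CACGC.
Gapdh, chr6:125165800-125165829 (minus strand): caCACGCttggtGCGTGcacatttcaaaaa
Ldha, chr7:46845758-46845787 (plus strand): cgtgggttcccgCACGTccgctgggctccc
Pkm, chr9:59657140-59657169 (plus strand): ctccgatccggtCACGTccgcgccgcagca
Aldoa, chr7:126799363-126799392 (minus strand): tgtggctcgagtCACGTcctagcggggcgg
Eno1, chr4:150237123-150237152 (plus strand): ttggagtgatggCACGCtgagccaatgggg
Hk2, chr6:82774489-82774518 (minus strand): aatgagcacatcCACGTcactgtccggggc
Pfkp, chr13:6648777-6648806 (minus strand): cgctcgggcgggGCGTGggcggctcctgcg
Slc2a1, chr4:119108697-119108726 (plus strand): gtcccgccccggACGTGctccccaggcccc
Of the 31 members with a promoter in the RefSeq table (250 bases before to 50 after a start), 27 (87.1%) held ACGTG or GCGTG on either strand in at least one of their 45 promoters, and Tpi1 did not. Counted by promoter, 35 of 45 (77.8%) held either motif, against 14380 of all 32851 promoters (43.8%). The GC-rich motif GGGCGG was found in 25 of the 45 (55.6%) against 35.7% of all, and CACGTG, which contains ACGTG, in 5 (11.1%) against 7.15%. A match says that these letters stand in the window and no more. Genes that were higher and genes that were lower in ob/ob-Veh both carried them, as Pfkp and Ldha show.

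The 12 libraries held 20132553 to 92475986 unique molecular identifiers (UMIs, one per captured RNA molecule), and 6472 to 17500 cells per library passed the filters. Cells were clustered in each depot without the 32 members among the clustering genes, and clusters were named from marker genes as adipocyte progenitor cells (APC, split into progenitor-like and preadipocyte-like cells), perivascular macrophages (PVM), lipid-associated macrophages (LAM), non-perivascular macrophages (NPVM), dendritic cells (DC), endothelial cells (EC), B cells (BC), T and NK cells (T/NK) and mesothelial cells, each written with "-like" since only transcripts were read. Levels are given as CPM, UMIs of a gene per 1000000 UMIs of its cell class in a library. Reads were counted at the 3′ end, so no division by gene length was made. UMIs were summed per library and class and tested across all genes with edgeR's quasi-likelihood test in 11 classes of eWAT and 8 of iWAT, and a call needed a 1.1-fold change or more with p, adjusted by Benjamini-Hochberg over the genes of the fit, no higher than 0.05. With 2 libraries per group the smallest exact permutation p is 0.33, so each adjusted p depends on the modelled variance (3 residual degrees of freedom). One library stood apart: iWAT WT-Veh replicate 1 held a median of 1132 UMIs per kept cell against 4671 in replicate 2, and 7177 of its 17063 kept cells fell in clusters that were left unnamed, against 2 of 9837. It also held 1867 BC-like cells against 112 in replicate 2. Of its 2857 T/NK-like cells 2447 lay in a cluster led by Satb1, Txk and Ms4a4b, against 61 of 1390 in replicate 2. The part of this in the BC-like and T/NK-like values of iWAT was not tested. Libraries shared 0.108% to 1.05% of the smaller library's cell barcodes. The largest excess over the number expected by chance was in eWAT ob/ob-Veh replicate 1 with iWAT ob/ob-Rosi replicate 1, at 94 against 25.3. Next came eWAT ob/ob-Rosi replicate 1 with iWAT WT-Veh replicate 1, at 99 against 46.0. Other pairs lay closer to the expected number, some above and some below it, and the cause was not tested. Classes hold at least 20 cells per library. A sum over a class cannot tell fewer expressing cells from less RNA per cell.

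The class names were checked against the summed level of their own markers. EC markers summed to 8335 to 9571 CPM in EC-like cells of eWAT and to at most 524 CPM in another fitted class, PVM markers to 18270 to 21380 CPM in PVM-like cells against at most 7591 CPM, and mesothelial markers to 5496 to 8529 CPM against at most 251 CPM. The 10 LAM markers did not set LAM-like cells (7384 to 11600 CPM) apart from proliferating macrophage-like cells, which reached 11040 CPM. DC markers ran from 705 to 2993 CPM in DC-like cells of iWAT and reached 3314 CPM in PVM-like cells, so that name rests on the genes leading the cluster, Plbd1, Clec9a and Xcr1 among them.

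The labels could not be checked with the mutated gene, because the ob mutation truncates the leptin protein and leaves its transcript. Lep UMIs per 100 UMIs of the adipocyte gene Adipoq were, in eWAT, 30.5 and 79.3 under WT-Veh, 3.59 and 10.3 under ob/ob-Veh and 259 and 361 under ob/ob-Rosi. In iWAT they were 20.5 and 31.4, 33.3 and 14.0, and 164 and 139, so that WT-Veh and ob/ob-Veh overlapped there. Few adipocyte transcripts are left in this fraction, and the ratios rest on 4 to 318 Lep and 12 to 585 Adipoq UMIs per library, the fewest (4 and 12) in iWAT ob/ob-Veh replicate 1. Fat of ob/ob mice is known to be rich in Lep transcript, which rosiglitazone lowers, so on these few counts ob/ob-Rosi in both depots, and ob/ob-Veh in eWAT, stood the other way from what the labels would give. Groups are therefore named by their labels in all that follows, and directions hold as far as the labels do. Cell numbers differed by label as well. LAM-like cells of eWAT numbered 6671 under WT-Veh, 149 under ob/ob-Veh and 6755 under ob/ob-Rosi. Of these, 45.1%, 53.0% and 44.4% lay in a cluster led by Cxcl2, Gdf15 and C1qa. Its best match was the general macrophage list, ahead of the LAM list. The authors hypothesized that such macrophages were lost with the floating adipocytes in ob/ob-Veh. Whether that loss or the labels had a part in these numbers was not tested here. A second check, added last, read 15 textbook targets of PPARγ, the receptor of the drug, in ob/ob-Rosi against ob/ob-Veh, over the 14 that could be tested. In eWAT 23 of 108 gene-by-class tests were called higher and 9 lower, against 4.94% of the tests of all genes called in either direction. Fabp4, the fatty acid carrier, was called higher in 7 classes and Plin2, a lipid droplet coat, in 6, and 7 of the 9 lower calls, Adipoq among them, were in EC-like cells. In iWAT 0 of 83 were higher and 3 lower, Pck1 in EC-like and PVM-like and Pdk4 in progenitor-like cells, against 6.07%. In ob/ob-Veh against WT-Veh, which shares the ob/ob-Veh libraries, 6 were higher and 37 lower in eWAT, and 2 and 5 in iWAT. The libraries labelled ob/ob-Veh also had the lowest share of ribosomal protein genes in both depots, at 11.3% and 11.1% of UMIs in eWAT against 12.3% to 14.3%, and at 7.38% and 7.95% in iWAT against 13.2% to 17.0%. Their median mitochondrial shares in iWAT, 9.05% and 8.06%, were above those of the other libraries there, 2.17% to 5.89%.

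Among the tested classes of eWAT, the pathway had its highest mean share in dividing macrophages under WT-Veh and ob/ob-Rosi, but not under ob/ob-Veh. Over all 6 libraries, proliferating macrophage-like cells of eWAT held the highest mean level among the tested classes of Gapdh (893 CPM), the step that generates NADH, of Pkm (588 CPM), the last ATP-yielding step, and of Ldha (415 CPM), Pgk1 (238 CPM), Pgam1 (234 CPM) and Tpi1 (224 CPM). Preadipocyte-like cells had the lowest Gapdh (327 CPM) and progenitor-like cells the lowest Pkm (179.7 CPM). The 32 genes together took 0.471% and 0.408% with WT-Veh, 0.266% and 0.226% with ob/ob-Veh and 0.347% and 0.576% with ob/ob-Rosi of the UMIs of proliferating macrophage-like cells in eWAT. In LAM-like cells the sum was 0.345% and 0.341% with WT-Veh, 0.252% and 0.284% with ob/ob-Veh and 0.306% and 0.504% with ob/ob-Rosi, and in EC-like cells 0.237% and 0.231% with WT-Veh, 0.150% and 0.173% with ob/ob-Veh and 0.187% and 0.285% with ob/ob-Rosi. In these classes both libraries labelled ob/ob-Veh lay below both labelled WT-Veh. In NPVM-like cells, where this held too, the sum was 0.324% and 0.350% with WT-Veh, 0.299% and 0.277% with ob/ob-Veh and 0.304% and 0.505% with ob/ob-Rosi. Under ob/ob-Veh the mean of the dividing cells (0.246%) lay below those of NPVM-like (0.288%), LAM-like (0.268%) and mesothelial-like cells (0.265%).

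In both depots the summed share was lower in the ob/ob-Veh than in the WT-Veh libraries in most classes. The classes of a depot come from the same libraries and are not independent repeats. The counts below were made for no other gene set, so a share to set beside them is missing. In eWAT the summed share of the 32 genes was lower in both ob/ob-Veh libraries than in both WT-Veh libraries in 10 of 11 classes, and the exception was preadipocyte-like cells, at 0.184% and 0.207% with WT-Veh, 0.176% and 0.185% with ob/ob-Veh and 0.156% and 0.302% with ob/ob-Rosi. In iWAT it was lower in 8 of 8 classes, for example 0.223% and 0.301% with WT-Veh, 0.158% and 0.151% with ob/ob-Veh and 0.214% and 0.282% with ob/ob-Rosi in DC-like cells and 0.161% and 0.207% with WT-Veh, 0.133% and 0.142% with ob/ob-Veh and 0.160% and 0.202% with ob/ob-Rosi in PVM-like cells. Gapdh carried part of this in iWAT, where it made up 12.5% and 22.9% with WT-Veh, 4.21% and 5.98% with ob/ob-Veh and 15.6% and 22.8% with ob/ob-Rosi of the members' UMIs in PVM-like cells, and over the 31 genes without it the groups stood apart in 5 of 8 iWAT classes and 10 of 11 eWAT classes. Both ob/ob-Rosi libraries lay above both ob/ob-Veh libraries in 6 of 11 eWAT classes and 8 of 8 iWAT classes. With each cell thinned to 700 UMIs these became 4 of 11 and 7 of 8, and ob/ob-Veh still lay below WT-Veh in 10 of 11 and 8 of 8. Over the 31 genes without Gapdh ob/ob-Rosi lay above ob/ob-Veh in 7 of 11 and 6 of 8 classes, and after thinning in 6 of 11 and 4 of 8, with 1 iWAT class lower. Against WT-Veh, both ob/ob-Rosi libraries lay on one side in 0 of 11 eWAT classes and in 1 of 8 iWAT classes, lower, which became 0 and 3 after thinning. Without Gapdh it was 1 of 11 eWAT classes, higher, and 4 of 8 iWAT classes, 3 lower and 1 higher, and after thinning 0 and 5, 4 lower and 1 higher. In eWAT the 2 ob/ob-Rosi libraries themselves differed: over all kept cells the sums were 0.316% and 0.282% with WT-Veh, 0.191% and 0.196% with ob/ob-Veh and 0.254% and 0.431% with ob/ob-Rosi, and ob/ob-Rosi replicate 2 was the highest library in each of the 11 eWAT classes.

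**Figure D1:**
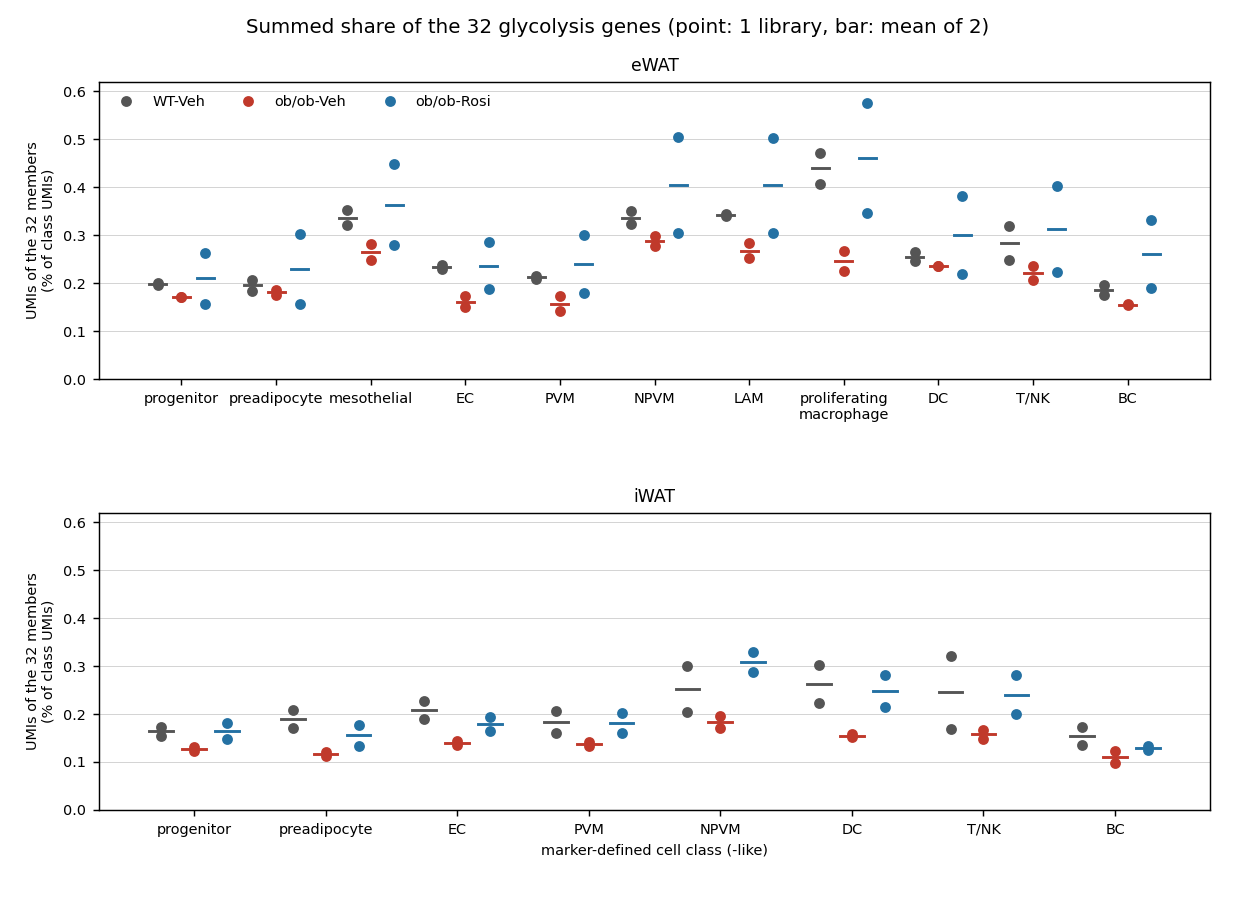
Share of a class's UMIs taken by the 32 genes (y axis, percent) in each cell class (x axis), 1 panel per depot. Points are libraries colored by label and bars are the mean of 2 libraries. The ob/ob-Veh points lie below the WT-Veh points in 10 of 11 eWAT and 8 of 8 iWAT classes, and the second ob/ob-Rosi library of eWAT lies above the first in each class. No such counts were made for another gene set.

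Carriers at the ends of the pathway marked particular classes. Slc2a3, the high-affinity glucose carrier of neurons and leukocytes, was highest among the tested classes in T/NK-like cells, at 38.0 CPM in eWAT and 65.9 CPM in iWAT, and Slc2a1, the basal carrier of most cells, was also highest there, at 27.5 and 31.0 CPM. Slc16a1, the carrier that moves lactate in either direction, stood at 305 and 332 CPM (WT-Veh), 353 and 381 CPM (ob/ob-Veh) and 493 and 271 CPM (ob/ob-Rosi) in mesothelial-like cells, and no other tested eWAT class reached that level. Slc16a3, the export carrier of glycolytic cells, was highest among the tested classes in NPVM-like cells, at 72.7 CPM in eWAT and 65.4 CPM in iWAT. Slc16a1 made up 95.8% to 99.6% of the UMIs of both carriers in mesothelial-like cells, and Slc16a3 78.7% to 95.8% in NPVM-like cells of the same depot. These differences between classes are descriptions, without a test.

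The isoenzymes were divided among classes in the same way. Shares of a family's UMIs compare genes without regard to length, and they are given for libraries with at least 30 UMIs of the family. Hk1, the housekeeping hexokinase bound to mitochondria, led in EC-like cells of eWAT in 6 of 6 libraries, with 53.4% to 86.3% of hexokinase UMIs. Hk2, the insulin-regulated form, led in 5 of 6 libraries in DC-like, NPVM-like and PVM-like cells of eWAT, and in 6 of 6 in progenitor-like cells of iWAT (59.3% to 93.3%), where its mean was 138 CPM. Hk3, the form of myeloid cells, led in 4 of 6 libraries of LAM-like cells. Among the phosphofructokinases Pfkp, the platelet type, led in every eWAT class, with at least 48.3% of the UMIs, and was highest among the tested classes in DC-like cells, at 233 CPM in eWAT and 422 CPM in iWAT. The muscle type Pfkm did not exceed 11.8 CPM in a class mean of eWAT, and Pfkl, the liver type, 38.7 CPM. Aldoa, the ubiquitous aldolase, held at least 92.2% of aldolase UMIs wherever the family could be read, and Aldoc, the brain form, was tested in 2 eWAT classes and in 0 iWAT classes for lack of UMIs.

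Lower in the pathway, Eno1, the ubiquitous enolase, led its family in each eWAT class (64.8% or more), whereas the neuronal form Eno2 reached 14.2 CPM in preadipocyte-like cells and the muscle form Eno3 25.8 CPM in DC-like cells. Eno1 has a nearly identical processed copy in the mouse genome, so its counts are uncertain where reads could fall on both. Whether reads of other members, Gapdh among them, could fall on such copies was not examined. Ldha, the form that favors lactate, led in 10 of 11 eWAT classes. Mesothelial-like cells were the exception: Ldhb, the form of oxidative tissues, held 54.7% to 68.7% of lactate dehydrogenase UMIs there in 6 of 6 libraries. Of the kinases that shut pyruvate dehydrogenase, Pdk1 led in EC-like cells of eWAT (59.5% to 92.6%) and had its highest means among the tested classes in EC-like cells of eWAT (60.1 CPM) and T/NK-like cells of iWAT (82.0 CPM). Pdk2 led in 4 of 6 libraries of eWAT preadipocyte-like cells, at a mean of 20.3 CPM, and Pdk3 in 4 of 5 of eWAT NPVM-like cells. Gpi1, the isomerase between the first kinases, stayed within 155 to 294.8 CPM over the eWAT classes.

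**Figure D2:**
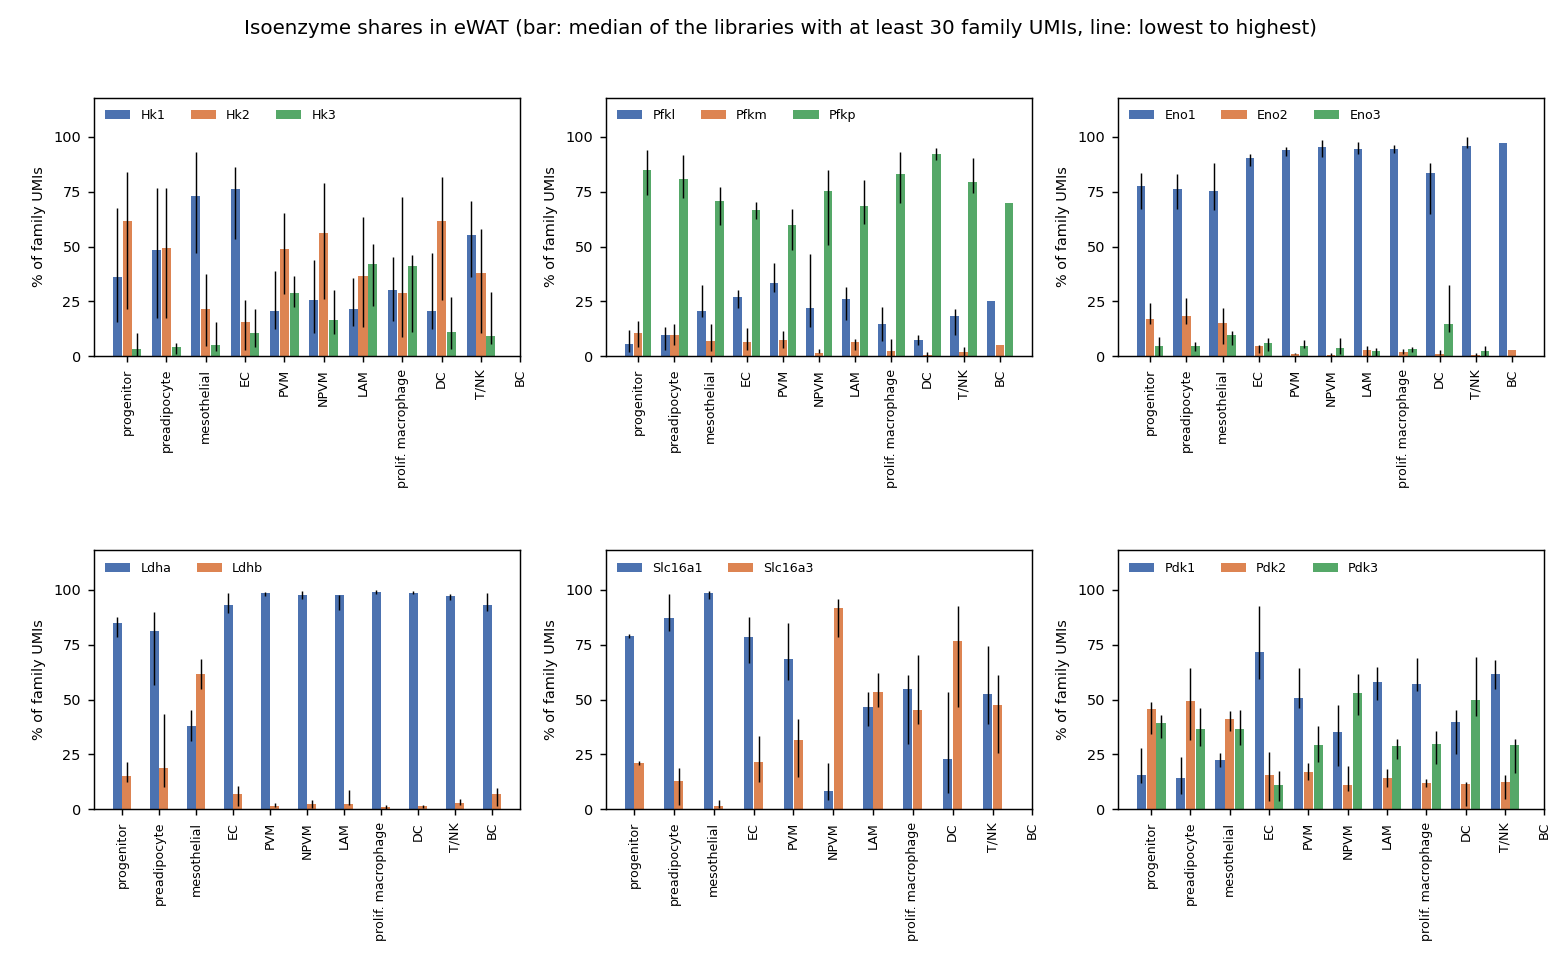
Share of a family's UMIs (y axis, percent) taken by each isoenzyme gene in the 11 eWAT classes (x axis), 1 panel per family. Bars are the median and lines the lowest to highest over libraries with at least 30 family UMIs; Ldhb overtakes Ldha in mesothelial-like cells (54.7% to 68.7%), and Slc16a3 overtakes Slc16a1 in NPVM-like cells (78.7% to 95.8%).

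The lean and the obese mouse were compared first, in eWAT, to ask which steps of glucose use differ with obesity. In the libraries labelled ob/ob-Veh, Ldha fell in 3 classes and Pkm in 2, Aldoa, Tpi1, Ldhb, Eno3 and Hk3 fell in 1 class each, Pfkp rose in 3 classes, Pfkfb3 in 2, and Hk2 and Slc16a3 in 1 each. Of 288 tests of a member in a class, 17 were called, 7 higher and 10 lower (5.90%; 45 with the replicate number as a block, 15 higher and 30 lower), and over all genes 5.54% of tests were called, 2.52% higher and 3.02% lower. The share of members called was thus near that of all genes, and 71 of the 288 had an unadjusted p under 0.05. The members' median log2 change lay below 0 in 11 of 11 classes, from -0.78 to -0.11, where the median over all genes ran from -0.09 to 0.02. Scaling by library size alone shifts the median gene by 0.00917 to 0.207 on the log2 scale in this comparison, and 9 of 11 member medians then lay below 0, each of the 11 below the median of all genes.

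Proliferating macrophage-like cells held 7 of the 17 calls. Pfkp, which commits glucose to the pathway, stood at 34.9 and 40.8 CPM (WT-Veh), 175 and 196 CPM (ob/ob-Veh) and 70.6 and 51.4 CPM (ob/ob-Rosi) in these cells. The ob/ob-Veh libraries were the high ones and the groups did not overlap: the change was 4.38-fold (edgeR, log2 change 2.13, SE 0.333, adjusted p = 1.38e-04). Aldoa, which splits the hexose, moved the other way, at 564 and 371 CPM (WT-Veh), 157 and 84.8 CPM (ob/ob-Veh) and 309.8 and 494 CPM (ob/ob-Rosi) (log2 change -2.01, SE 0.423, adjusted p = 0.00237). Tpi1, which interconverts the trioses, stood at 279 and 289 CPM (WT-Veh), 115 and 104 CPM (ob/ob-Veh) and 203 and 349.9 CPM (ob/ob-Rosi) (log2 change -1.49, SE 0.372, adjusted p = 0.00825), again lowest in both ob/ob-Veh libraries. Pkm stood at 772 and 734 CPM (WT-Veh), 336 and 183 CPM (ob/ob-Veh) and 575 and 929 CPM (ob/ob-Rosi) (log2 change -1.61, SE 0.409, adjusted p = 0.00904). Ldha stood at 632 and 445 CPM (WT-Veh), 206 and 209 CPM (ob/ob-Veh) and 391 and 605 CPM (ob/ob-Rosi), 2.92-fold lower under ob/ob-Veh (log2 change -1.55, SE 0.381, adjusted p = 0.00746). Hk2 and Slc16a3, the entry kinase and the lactate export carrier, rose from low levels. Slc16a3 was read as 61 and 17 UMIs (WT-Veh), 22 and 10 UMIs (ob/ob-Veh) and 26 and 76 UMIs (ob/ob-Rosi), or 8.54 and 10.1 CPM (WT-Veh), 36.3 and 65.3 CPM (ob/ob-Veh) and 8.46 and 16.4 CPM (ob/ob-Rosi) (log2 change 2.15, SE 0.481, adjusted p = 0.00371), and Hk2 stood at 24.2 and 13.6 CPM (WT-Veh), 111 and 45.7 CPM (ob/ob-Veh) and 31.9 and 5.83 CPM (ob/ob-Rosi) (log2 change 2.00, SE 0.582, adjusted p = 0.0203).

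The cells behind these values differed between groups in more than glycolysis. The ob/ob-Veh libraries gave 69 and 22 proliferating macrophage-like cells, and 2020 of 10203 genes (19.8%) were called in this class, beside 7 of the 30 members tested there. The 10 LAM markers summed to 8638 and 9191 CPM (WT-Veh), 828 and 1906 CPM (ob/ob-Veh) and 11040.0 and 7734 CPM (ob/ob-Rosi) in it, and the 8 NPVM markers to 672 and 486 CPM (WT-Veh), 17660.0 and 12600.0 CPM (ob/ob-Veh) and 1759 and 956 CPM (ob/ob-Rosi), with 1 marker of each list at 0 in ob/ob-Veh replicate 2 and none in the other libraries. The 15 genes of the dissociation response, heat-shock and immediate-early genes known to rise during digestion of tissue, summed to 3320 and 3841 CPM (WT-Veh), 12850.0 and 13710.0 CPM (ob/ob-Veh) and 3890 and 3438 CPM (ob/ob-Rosi) in the same libraries. The part of these in the result was not tested. Without the 4 classes in which a library held under 100 cells (BC-like, LAM-like, mesothelial-like and proliferating macrophage-like), 6 of the 17 calls were left, and without WT-Veh replicate 1 there were 6 over all classes.

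Outside the dividing cells, Ldha was also lower in LAM-like cells of eWAT, at 421 and 368 CPM (WT-Veh), 186 and 219.8 CPM (ob/ob-Veh) and 312 and 481 CPM (ob/ob-Rosi) (log2 change -1.14, SE 0.289, adjusted p = 0.0465), and in mesothelial-like cells, at 192 and 139 CPM (WT-Veh), 71.3 and 68.6 CPM (ob/ob-Veh) and 133 and 193 CPM (ob/ob-Rosi) (log2 change -1.33, SE 0.277, adjusted p = 0.0287). Both ob/ob-Veh libraries were the lowest in each. LAM-like cells numbered 51 and 98 in the ob/ob-Veh libraries, against 6671 over both WT-Veh libraries and 6755 over both labelled ob/ob-Rosi. The NPVM markers summed to 972 and 703 CPM (WT-Veh), 2987 and 3283 CPM (ob/ob-Veh) and 1658 and 837 CPM (ob/ob-Rosi) in LAM-like cells. In mesothelial-like cells Ldhb, their leading isoenzyme, fell with Ldha, at 305 and 306 CPM (WT-Veh), 109 and 125 CPM (ob/ob-Veh) and 160.1 and 319 CPM (ob/ob-Rosi) (log2 change -1.48, SE 0.30, adjusted p = 0.0267), while the macrophage markers summed to 4063 and 2313 CPM (WT-Veh), 641 and 645 CPM (ob/ob-Veh) and 2549 and 2547 CPM (ob/ob-Rosi) there. Their part in the Ldha and Ldhb changes was not tested.

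Pfkp rose in classes other than the dividing cells too. In NPVM-like cells of eWAT it stood at 71.4 and 47.8 CPM (WT-Veh), 155 and 173 CPM (ob/ob-Veh) and 97.7 and 61.6 CPM (ob/ob-Rosi) (log2 change 1.35, SE 0.307, adjusted p = 0.0226), and in preadipocyte-like cells at 41.7 and 52.8 CPM (WT-Veh), 119.7 and 107 CPM (ob/ob-Veh) and 67.5 and 51.0 CPM (ob/ob-Rosi) (log2 change 1.17, SE 0.258, adjusted p = 0.0198). In both, the ob/ob-Veh libraries held the highest levels. The cells of these classes came mostly from different clusters: 83.6% of the ob/ob-Veh NPVM-like cells lay in a cluster led by Lyz1, Ear2 and Retnla, and 53.2% of the WT-Veh ones in one led by Chil3, Il1b and Thbs1. Preadipocyte-like cells likewise had a different leading cluster in each group, led by AY036118 and Mgp (WT-Veh), Agt and Trf (ob/ob-Veh) and Ndufa4l2 and Mgp (ob/ob-Rosi). By library, only the ob/ob-Veh preadipocyte-like cells stood apart, since replicate 1 of both WT-Veh and ob/ob-Rosi lay mostly in the first of these clusters, and replicate 2 of both mostly in the third. Hk3 fell in preadipocyte-like cells (log2 change -3.22, SE 0.825, adjusted p = 0.0384) on few molecules, 36 and 12 UMIs (WT-Veh), 3 and 3 UMIs (ob/ob-Veh) and 24 and 29 UMIs (ob/ob-Rosi), and macrophage markers, whose cells express Hk3, summed to 2201 and 1582 CPM (WT-Veh), 237 and 433 CPM (ob/ob-Veh) and 1790 and 1672 CPM (ob/ob-Rosi) there. Their part in the Hk3 change was not tested. Eno3 fell in DC-like cells, at 33.4 and 47.0 CPM (WT-Veh), 15.9 and 10.3 CPM (ob/ob-Veh) and 17.3 and 31.0 CPM (ob/ob-Rosi) (log2 change -1.79, SE 0.403, adjusted p = 0.0279).

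Pfkfb3, the kinase that makes the activator of phosphofructokinase and is known to drive glycolysis in sprouting vessels, rose in EC-like cells of eWAT. It stood at 16.0 and 19.1 CPM (WT-Veh), 49.0 and 66.0 CPM (ob/ob-Veh) and 76.4 and 61.6 CPM (ob/ob-Rosi), and the 4 ob/ob libraries of either treatment lay above both WT-Veh libraries (log2 change 1.57, SE 0.282, adjusted p = 0.0160). Pkm fell in the same cells, at 296 and 268 CPM (WT-Veh), 130.2 and 134 CPM (ob/ob-Veh) and 249 and 381 CPM (ob/ob-Rosi) (log2 change -1.22, SE 0.282, adjusted p = 0.0433). One cluster, led by Gpihbp1, Aqp1 and Cldn5, held most EC-like cells in every group. RNA of other cells moved with the groups in this class: the macrophage markers summed to 5870.0 and 4647 CPM (WT-Veh), 2345 and 1416 CPM (ob/ob-Veh) and 6628 and 5420.0 CPM (ob/ob-Rosi), the mural markers to 330.2 and 477 CPM (WT-Veh), 1495 and 1738 CPM (ob/ob-Veh) and 556 and 909.6 CPM (ob/ob-Rosi) and the adipocyte genes to 43.0 and 39.1 CPM (WT-Veh), 826 and 677 CPM (ob/ob-Veh) and 23.7 and 20.5 CPM (ob/ob-Rosi), and their part was not tested. The Pfkfb3 call was lost without WT-Veh replicate 1 or 2 or ob/ob-Veh replicate 2, after doublets were removed and after cells were thinned to 700 UMIs, with the same direction each time. In LAM-like cells Pfkfb3 was also called (log2 change 1.32, SE 0.328, adjusted p = 0.0458), on 362 and 306 UMIs (WT-Veh), 8 and 50 UMIs (ob/ob-Veh) and 382 and 643 UMIs (ob/ob-Rosi).

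**Figure D3:**
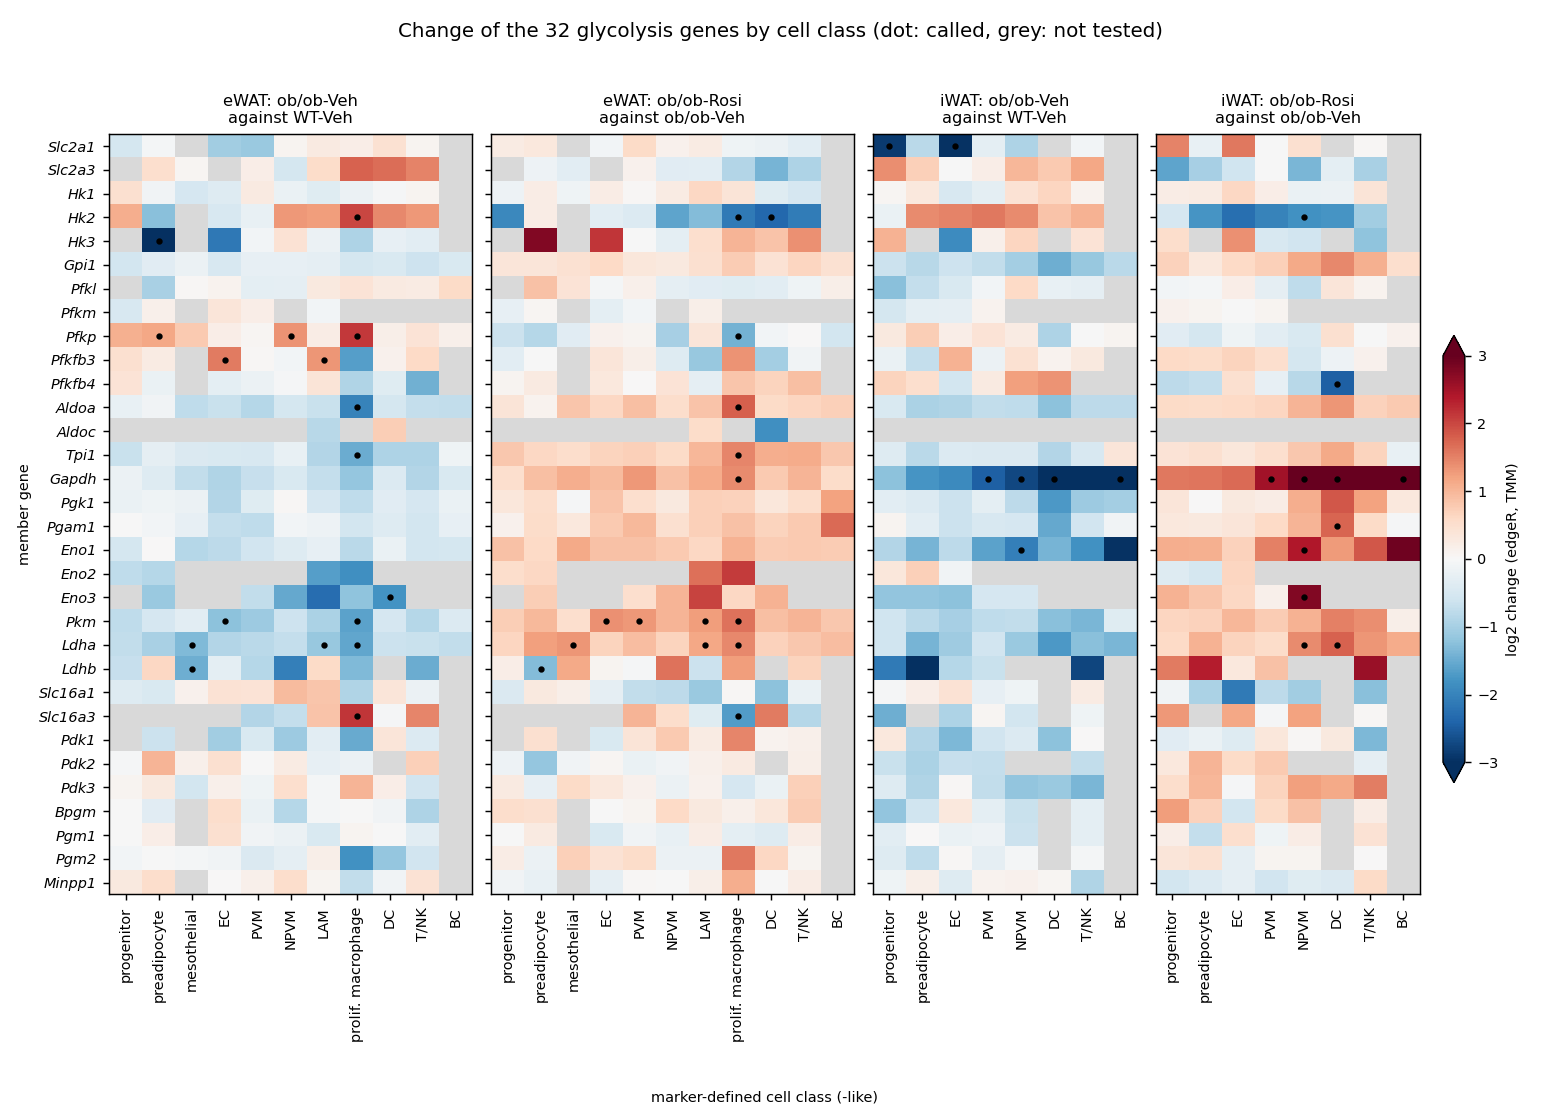
Log2 change of the 32 genes (rows) in each fitted cell class (columns) in 4 comparisons (panels), red higher and blue lower in the group named first, with the color scale cut at 3. Black dots mark calls and grey fields were not tested. Columns mostly blue for ob/ob-Veh against WT-Veh are mostly red for ob/ob-Rosi against ob/ob-Veh. Pfkp, Hk2 and Slc16a3 go the other way round in proliferating macrophage-like cells of eWAT. Both comparisons use the same ob/ob-Veh libraries, so opposite colors can come from those libraries alone and are not read as a result.

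Rosiglitazone was then set against vehicle in ob/ob mice, to ask which steps the drug moved within 3 days. In eWAT, Pkm rose in 4 classes, Ldha in 3, and Aldoa, Tpi1 and Gapdh in 1 each, while Hk2 fell in 2 classes and Pfkp, Slc16a3 and Ldhb in 1 each. Of 288 tests, 15 were called, 10 higher and 5 lower (5.21%; 44 with the block, 31 higher and 13 lower), against 4.94% over all genes (2.72% higher, 2.23% lower), and 85 had an unadjusted p under 0.05. With library size alone 6 were higher and 5 lower. The members' medians lay above 0 in 11 of 11 classes, from 0.17 to 0.80. Both comparisons use the same ob/ob-Veh libraries, so the values are set side by side and no overlap of the calls is read as a result.

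In proliferating macrophage-like cells, where 8 of the 30 tested members and 1574 of 10203 genes (15.4%) were called, Pkm rose 3.099-fold over the ob/ob-Veh level given above (log2 change 1.63, SE 0.409, adjusted p = 0.0106). Ldha rose 2.71-fold (log2 change 1.44, SE 0.380, adjusted p = 0.0144), Aldoa 3.46-fold (log2 change 1.79, SE 0.421, adjusted p = 0.00700) and Tpi1 2.78-fold (log2 change 1.48, SE 0.372, adjusted p = 0.0109). Gapdh stood at 1121 and 875 CPM (WT-Veh), 577 and 411 CPM (ob/ob-Veh) and 728 and 1644 CPM (ob/ob-Rosi), both ob/ob-Rosi libraries above both ob/ob-Veh libraries (log2 change 1.41, SE 0.433, adjusted p = 0.0327). Pfkp fell 2.67-fold (log2 change -1.42, SE 0.323, adjusted p = 0.00564), Hk2 4.38-fold (log2 change -2.13, SE 0.587, adjusted p = 0.0183) and Slc16a3 3.19-fold (log2 change -1.67, SE 0.465, adjusted p = 0.0192). The dissociation, LAM and NPVM sums given above for these cells moved in the same libraries, and their part was not tested.

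Pkm was the member called in the most eWAT classes under the drug. In LAM-like cells it stood at 565 and 608 CPM (WT-Veh), 301 and 384 CPM (ob/ob-Veh) and 536 and 875 CPM (ob/ob-Rosi) (log2 change 1.25, SE 0.284, adjusted p = 0.0326). In PVM-like cells it stood at 263 and 280.1 CPM (WT-Veh), 132 and 141 CPM (ob/ob-Veh) and 237 and 383 CPM (ob/ob-Rosi) (log2 change 1.31, SE 0.272, adjusted p = 0.0384), where 97.0% of ob/ob-Veh cells lay in a cluster led by Cd209f, Lyve1 and Cd209d and 97.0% of ob/ob-Rosi cells in one led by Ccl8, Fcna and Lyve1. In EC-like cells Pkm rose 2.60-fold (log2 change 1.38, SE 0.281, adjusted p = 0.0230). In each of these classes the ob/ob-Veh libraries were the lowest, and ob/ob-Rosi replicate 2 was the highest library. Ldha rose in LAM-like cells (log2 change 1.17, SE 0.289, adjusted p = 0.0425) and mesothelial-like cells (log2 change 1.33, SE 0.279, adjusted p = 0.0471). The marker sums given above for EC-like, LAM-like and mesothelial-like cells moved in the same libraries, and their part was not tested. Hk2 fell in DC-like cells, at 47.0 and 21.1 CPM (WT-Veh), 95.9 and 118 CPM (ob/ob-Veh) and 38.9 and 6.66 CPM (ob/ob-Rosi) (log2 change -2.36, SE 0.519, adjusted p = 0.0234). Ldhb fell in preadipocyte-like cells, at 37.7 and 65.2 CPM (WT-Veh), 75.9 and 91.9 CPM (ob/ob-Veh) and 21.2 and 41.9 CPM (ob/ob-Rosi) (log2 change -1.30, SE 0.348, adjusted p = 0.0461). Without ob/ob-Rosi replicate 2 the 15 calls became 2, without ob/ob-Veh replicate 1 they became 6, and without ob/ob-Rosi replicate 1 they became 72.

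Against lean mice, few members of the treated eWAT stood apart. Of 288 tests 1 was called, and 11 had an unadjusted p under 0.05. Over all genes 0.0204% of tests were called. Pfkfb3 in EC-like cells was the 1 call: it remained above WT-Veh in both ob/ob-Rosi libraries (log2 change 1.93, SE 0.281, adjusted p = 0.0446), and the call was lost when any of the 4 libraries compared was left out, under library size alone, with thinned cells and without doublets. Pdk1 in EC-like cells was next by p and was not called, at 75.03 and 116 CPM (WT-Veh), 44.5 and 57.1 CPM (ob/ob-Veh) and 31.98 and 36.3 CPM (ob/ob-Rosi) (log2 change -1.50, SE 0.279, adjusted p = 0.0962). Slc16a3 in DC-like cells followed, at 11.6 and 5.87 CPM (WT-Veh), 6.18 and 14.2 CPM (ob/ob-Veh) and 29.2 and 24.7 CPM (ob/ob-Rosi) (log2 change 1.52, SE 0.460, adjusted p = 1.00). The members' medians ran from 0.03 to 0.24, above 0 in all 11 classes, and without ob/ob-Rosi replicate 2 they lay below 0 in all 11.

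**Figure D4:**
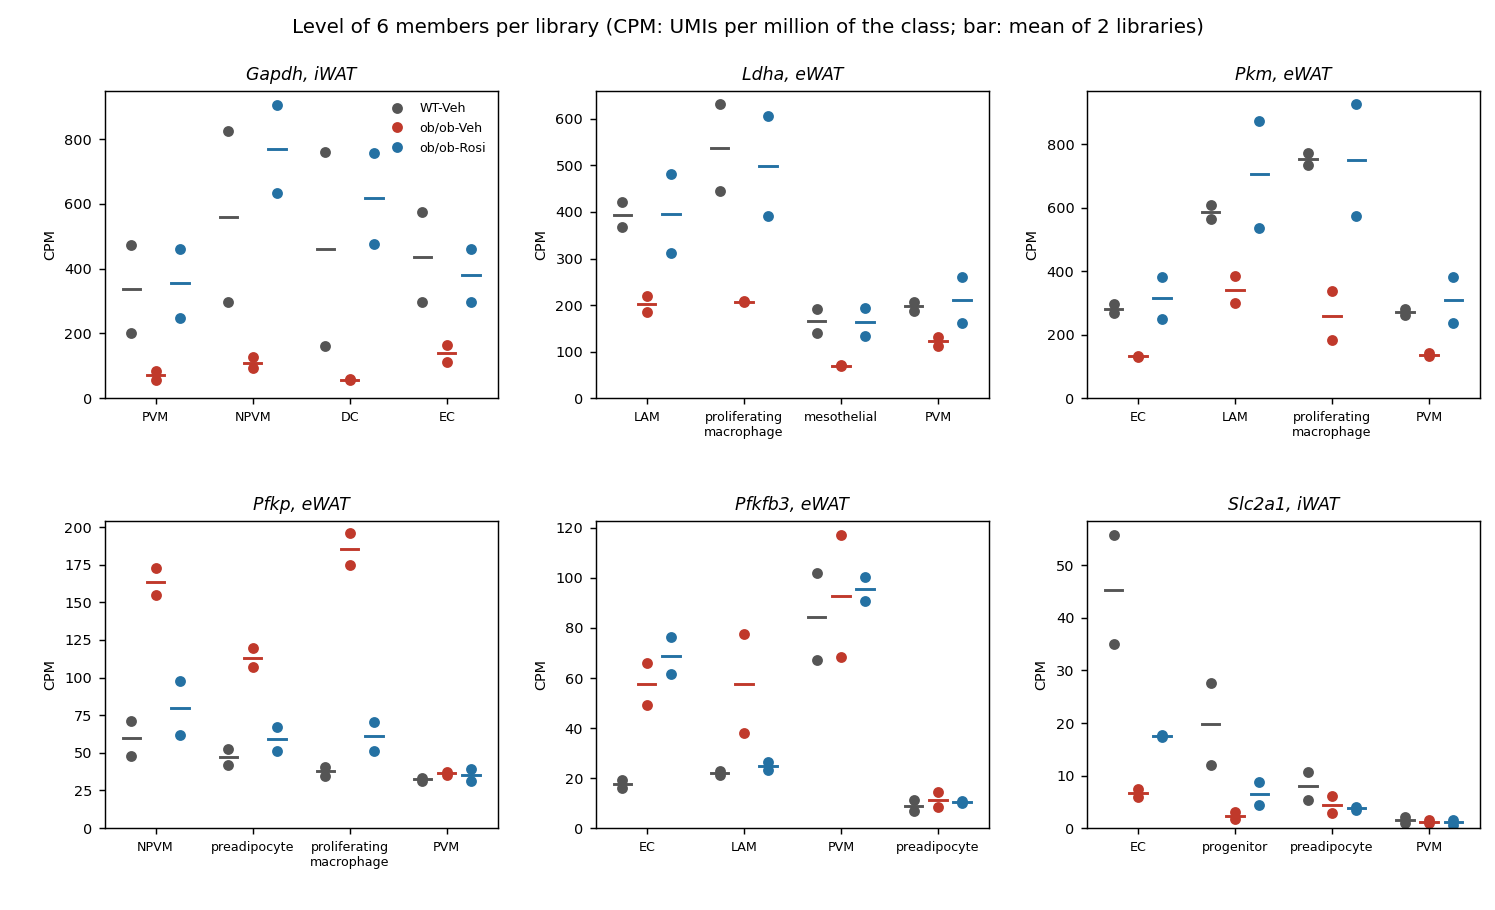
Levels of 6 members (y axis, CPM) in 4 classes each (x axis), 1 panel per member, Gapdh and Slc2a1 in iWAT and the others in eWAT. Points are libraries colored by label and bars are the mean of 2 libraries; Ldha and Pkm are lowest in the ob/ob-Veh libraries, and Pfkp is highest there in NPVM-like, preadipocyte-like and proliferating macrophage-like cells.

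The same contrast of obese and lean mice in iWAT gave changes in fewer genes, all lower. Gapdh fell in 4 classes of immune cells, Slc2a1 in EC-like and progenitor-like cells, and Eno1 in NPVM-like cells. Of 204 tests 7 were called, 0 higher and 7 lower (3.43%), against 2.69% over all genes (1.42% higher, 1.27% lower), and 56 had an unadjusted p under 0.05. With library size alone 1 was higher and 7 lower, DESeq2 called 20 (1 higher, 19 lower), the replicate block 17 (2 higher, 15 lower) and edgeR without a filter on low counts 27 (3 higher, 24 lower). The members' medians lay below 0 in 8 of 8 classes, from -1.11 to -0.29, and in 7 of 8 with library size alone, which shifts the median gene by 0.0359 to 0.464 here.

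Gapdh was the member called in the most classes. In NPVM-like cells of iWAT it stood at 296 and 824 CPM (WT-Veh), 126 and 93.5 CPM (ob/ob-Veh) and 635 and 906 CPM (ob/ob-Rosi), so both ob/ob-Veh libraries lay below the rest (log2 change -2.73, SE 0.546, adjusted p = 0.0218). In DC-like cells it stood at 162 and 759.6 CPM (WT-Veh), 56.2 and 58.4 CPM (ob/ob-Veh) and 477 and 758 CPM (ob/ob-Rosi) (log2 change -3.60, SE 0.757, adjusted p = 0.0233), and in PVM-like cells at 202 and 473 CPM (WT-Veh), 55.8 and 85.1 CPM (ob/ob-Veh) and 249 and 461 CPM (ob/ob-Rosi) (log2 change -2.45, SE 0.505, adjusted p = 0.0359). WT-Veh replicate 1 lay between ob/ob-Veh and WT-Veh replicate 2 in each of the 3 classes. In BC-like cells Gapdh was read as 405 and 70 UMIs (WT-Veh), 0 and 2 UMIs (ob/ob-Veh) and 66 and 29 UMIs (ob/ob-Rosi). The 0 rests on 20 cells and allows up to 106 CPM, and 475 UMIs against 2 over the 2 libraries of each group give a ratio per class UMI of 7.99 (95% exact interval 2.20 to 66.2, for counting error only), with edgeR's log2 change -3.74, SE 0.8802, adjusted p = 0.0413.

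Other transcripts moved with Gapdh in these cells. Ribosomal protein genes took 12.8% and 22.6% with WT-Veh, 5.22% and 5.93% with ob/ob-Veh and 19.4% and 23.0% with ob/ob-Rosi of UMIs in NPVM-like cells and 14.0% and 29.9% with WT-Veh, 4.49% and 6.33% with ob/ob-Veh and 28.0% and 31.8% with ob/ob-Rosi in DC-like cells, and mitochondrial genes 10.95% and 2.66% with WT-Veh, 12.7% and 11.53% with ob/ob-Veh and 3.78% and 2.00% with ob/ob-Rosi in DC-like cells. The 10 APC markers, foreign to these classes, summed to 629.9 and 409 CPM (WT-Veh), 3836 and 3425 CPM (ob/ob-Veh) and 1473 and 1065 CPM (ob/ob-Rosi) in NPVM-like, 445 and 400.3 CPM (WT-Veh), 3725 and 3335 CPM (ob/ob-Veh) and 1420 and 1253 CPM (ob/ob-Rosi) in PVM-like, 573 and 621 CPM (WT-Veh), 5609 and 4492 CPM (ob/ob-Veh) and 1207 and 1211 CPM (ob/ob-Rosi) in DC-like and 1133 and 631 CPM (WT-Veh), 6126 and 7700.0 CPM (ob/ob-Veh) and 2110 and 2830 CPM (ob/ob-Rosi) in BC-like cells, with none at 0 in the ob/ob-Veh libraries. The dissociation response summed to 5456 and 6677 CPM (WT-Veh), 16890.0 and 14450.0 CPM (ob/ob-Veh) and 5714 and 5612 CPM (ob/ob-Rosi) in DC-like cells. Their part in the Gapdh result was not tested. NPVM-like cells of the ob/ob-Veh libraries lay to 92.3% in another cluster than 80.5% of those labelled WT-Veh, and PVM-like cells likewise had different leading clusters, while 1 cluster led the DC-like and BC-like cells of all groups.

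Slc2a1, the carrier through which endothelium takes up glucose, was low in EC-like cells of iWAT under ob/ob-Veh. It was read as 175 and 409 UMIs (WT-Veh), 2 and 13 UMIs (ob/ob-Veh) and 206 and 170 UMIs (ob/ob-Rosi), which is 35.0 and 55.7 CPM (WT-Veh), 5.91 and 7.40 CPM (ob/ob-Veh) and 17.4 and 17.8 CPM (ob/ob-Rosi) (log2 change -2.97, SE 0.427, adjusted p = 0.0381), and the groups did not overlap. EC-like cells of ob/ob-Veh replicate 1 numbered 111, and the leading cluster differed among the 3 groups. Between WT-Veh and ob/ob-Veh that difference rests on WT-Veh replicate 1: the leading WT-Veh cluster held 2267 of its cells and 17 of replicate 2, whereas 962 cells of replicate 2 lay in the cluster that also led under ob/ob-Veh. In progenitor-like cells Slc2a1 stood at 27.6 and 12.0 CPM (WT-Veh), 3.02 and 1.76 CPM (ob/ob-Veh) and 8.76 and 4.34 CPM (ob/ob-Rosi) (log2 change -2.87, SE 0.539, adjusted p = 0.0350), WT-Veh replicate 1 on 18 UMIs in 118 cells. Of the ob/ob-Veh progenitor-like cells 63.8% lay in a cluster led by Il1r2 and Sema3e, whereas 52.1% of the WT-Veh and 45.2% of the ob/ob-Rosi ones lay in one led by Krtdap and Dmkn. WT-Veh replicate 1 had 111 of its 118 cells in another cluster led by the same genes. Eno1 in NPVM-like cells stood at 89.99 and 224 CPM (WT-Veh), 51.2 and 49.9 CPM (ob/ob-Veh) and 189 and 234 CPM (ob/ob-Rosi) (log2 change -2.05, SE 0.463, adjusted p = 0.0272). Without ob/ob-Veh replicate 1 or replicate 2, 0 members were called in iWAT, and without WT-Veh replicate 1 there were 48 calls, 5 higher and 43 lower, with log2 changes of -3.42 for Gapdh and -2.66 for Eno1 in NPVM-like cells and -2.43 for Slc2a1 in progenitor-like cells. Without WT-Veh replicate 2 these were -1.62, -1.03 and -3.48, and the Eno1 call was lost.

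Under rosiglitazone, Gapdh rose in the same 4 iWAT classes, Ldha in DC-like and NPVM-like cells, Eno1 and Eno3 in NPVM-like cells and Pgam1 in DC-like cells, while Hk2 fell in NPVM-like and Pfkfb4 in DC-like cells. Of 204 tests 11 were called, 9 higher and 2 lower (5.39%), against 6.07% over all genes (3.40% higher, 2.68% lower), and 63 had an unadjusted p under 0.05. With library size alone 6 were higher and 5 lower, DESeq2 called 30 (26 higher, 4 lower), the replicate block 31 (26 higher, 5 lower) and edgeR without a filter 40 (33 higher, 7 lower). The members' medians lay above 0 in 8 of 8 classes, from 0.21 to 1.13, and in 7 of 8 with library size alone, which shifts the median gene by -0.616 to -0.0498.

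Gapdh rose 8.94-fold in NPVM-like cells (log2 change 3.16, SE 0.554, adjusted p = 0.00643), 16.4-fold in DC-like cells (log2 change 4.04, SE 0.766, adjusted p = 0.00932) and 5.77-fold in PVM-like cells (log2 change 2.53, SE 0.507, adjusted p = 0.0267), both ob/ob-Rosi libraries above both ob/ob-Veh libraries. In BC-like cells 95 UMIs stood against 2, a ratio per class UMI of 14.2 (95% exact interval 3.83 to 119; edgeR, log2 change 4.27, SE 0.870, adjusted p = 0.0339). Eno1, the step after the mutase Pgam1, rose 5.32-fold in NPVM-like cells (log2 change 2.41, SE 0.462, adjusted p = 0.00816). Pgam1 stood at 66.8 and 151 CPM (WT-Veh), 41.2 and 73.0 CPM (ob/ob-Veh) and 131 and 119 CPM (ob/ob-Rosi) in DC-like cells (log2 change 1.75, SE 0.549, adjusted p = 0.0438), and ob/ob-Rosi overlapped WT-Veh. Ldha stood at 219.6 and 370.1 CPM (WT-Veh), 142 and 112 CPM (ob/ob-Veh) and 274 and 296 CPM (ob/ob-Rosi) in DC-like cells (log2 change 1.76, SE 0.497, adjusted p = 0.0286) and at 167 and 288 CPM (WT-Veh), 172 and 98.6 CPM (ob/ob-Veh) and 269 and 299.6 CPM (ob/ob-Rosi) in NPVM-like cells (log2 change 1.41, SE 0.414, adjusted p = 0.0358), where WT-Veh replicate 1 lay among the ob/ob-Veh libraries.

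Hk2 went the other way in NPVM-like cells of iWAT, at 89.99 and 31.7 CPM (WT-Veh), 178 and 175 CPM (ob/ob-Veh) and 48.9 and 30.9 CPM (ob/ob-Rosi), with both ob/ob-Veh libraries the highest (log2 change -1.82, SE 0.393, adjusted p = 0.0112). Pfkfb4, a second maker of the phosphofructokinase activator, was read as 5 and 12 UMIs (WT-Veh), 15 and 9 UMIs (ob/ob-Veh) and 10 and 2 UMIs (ob/ob-Rosi) in DC-like cells (log2 change -2.44, SE 0.690, adjusted p = 0.0285), and Eno3 as 3 and 11 UMIs (WT-Veh), 5 and 3 UMIs (ob/ob-Veh) and 116 and 58 UMIs (ob/ob-Rosi) in NPVM-like cells (log2 change 2.79, SE 0.630, adjusted p = 0.0132), both small counts. Without ob/ob-Veh replicate 1 or replicate 2, 0 members were called; without ob/ob-Rosi replicate 2 there were 5 calls, and without WT-Veh replicate 1 or 2 there were 50 and 49. The ribosomal, mitochondrial, APC-marker and dissociation values given above for these classes moved in the same libraries, and their part was not tested. Against WT-Veh, 0 of 204 member tests were called in iWAT (edgeR; 11 with an unadjusted p under 0.05, 1 call with DESeq2, 5 without a filter, 2 without WT-Veh replicate 1 and 10 without WT-Veh replicate 2), and 0.0% over all genes. The 3 lowest p were in EC-like cells: Pfkfb3 stood at 24.6 and 27.1 CPM (WT-Veh), 53.2 and 73.4 CPM (ob/ob-Veh) and 91.0 and 79.3 CPM (ob/ob-Rosi) (log2 change 1.71, SE 0.282, adjusted p = 0.0889), Slc2a1 differed by -1.38 (SE 0.322, adjusted p = 0.218) and Slc16a1 by -1.70 (SE 0.412, adjusted p = 0.224) on the log2 scale.

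The depots were compared over all 3 groups in the 8 classes found in both, by a fit with 6 means for depot and group. Members were mostly lower in iWAT. Of 222 tests 20 were called, 2 higher and 18 lower in iWAT (9.01%; 48 with the replicate block, 5 higher and 43 lower), against 5.51% over all genes (2.57% higher, 2.94% lower), and 74 had an unadjusted p under 0.05. Medians of the members ran from -0.92 to -0.18, below 0 in 8 of 8 classes, and library size alone shifts the median gene by -0.121 to 0.353. Gapdh was lower in iWAT in 4 of 8 classes, with a log2 difference (iWAT minus eWAT) of -2.10 (SE 0.397, adjusted p = 0.00826) in BC-like cells, -1.41 (SE 0.372, adjusted p = 0.0466) in DC-like, -1.08 (SE 0.282, adjusted p = 0.0473) in NPVM-like and -0.92 (SE 0.221, adjusted p = 0.0252) in preadipocyte-like cells. The depot difference averages over the groups. In BC-like, DC-like and NPVM-like cells the ob/ob-Veh libraries held the lowest Gapdh of iWAT, at the levels given above. Their part in the Gapdh depot difference was not tested. DC-like cells were not made up alike in the depots. In iWAT all of them lay in 1 cluster, led by Sept3, Plbd1 and Clec9a. In eWAT 51.1% to 61.8% of a group's DC-like cells lay in a cluster led by Ccr7, Cd209a and Il1b. The part of this in the depot differences of DC-like cells, here and below, was not tested. Without ob/ob-Veh replicate 2 of iWAT the 20 calls became 7, without WT-Veh replicate 2 of iWAT 48 and without WT-Veh replicate 1 of iWAT 17. The labels do not say whether both depots came from the same mice, and the iWAT files, unlike those of eWAT, hold no barcode above 22000 UMIs.

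Progenitor-like cells gave 7 of the 20 calls, from 31 members tested, where 17.4% of all genes were called. Slc16a1, the lactate carrier, was higher in iWAT: in eWAT progenitor-like cells it stood at 18.9 and 10.999 CPM (WT-Veh), 10.8 and 11.1 CPM (ob/ob-Veh) and 10.8 and 4.06 CPM (ob/ob-Rosi), in iWAT at 52.1 and 27.0 CPM (WT-Veh), 30.8 and 45.1 CPM (ob/ob-Veh) and 40.7 and 23.6 CPM (ob/ob-Rosi), and the 6 libraries of one depot did not overlap with those of the other (log2 difference 1.81 (SE 0.251, adjusted p = 1.26e-04)). Ldhb was lower in iWAT, at 36.4 and 45.5 CPM (WT-Veh), 20.9 and 31.7 CPM (ob/ob-Veh) and 24.97 and 35.2 CPM (ob/ob-Rosi) in eWAT and 1.53 and 19.0 CPM (WT-Veh), 3.22 and 3.86 CPM (ob/ob-Veh) and 6.66 and 11.7 CPM (ob/ob-Rosi) in iWAT, again without overlap (log2 difference -1.88 (SE 0.282, adjusted p = 2.46e-04)). Ldhb was also lower in preadipocyte-like cells (-1.58 (SE 0.285, adjusted p = 0.00530)). Bpgm, which makes the 2,3-bisphosphoglycerate side product, was higher in iWAT progenitor-like cells (0.95 (SE 0.213, adjusted p = 0.00549)), and Pdk3 (-1.08 (SE 0.246, adjusted p = 0.00621)), Eno2 (-2.17 (SE 0.295, adjusted p = 1.03e-04)), Slc2a3 (-1.90 (SE 0.346, adjusted p = 0.00122)) and Ldha (-0.59 (SE 0.180, adjusted p = 0.0352)) were lower. Elsewhere Ldha (-1.68 (SE 0.329, adjusted p = 0.0108)) and Pkm (-1.11 (SE 0.281, adjusted p = 0.0288)) were lower in BC-like cells, Pkm (-0.64 (SE 0.179, adjusted p = 0.0466)) and Pdk3 (-0.88 (SE 0.195, adjusted p = 0.0163)) in preadipocyte-like cells, Eno1 (-1.06 (SE 0.253, adjusted p = 0.0269)), Aldoa (-1.14 (SE 0.265, adjusted p = 0.0221)) and Eno3 (-1.88 (SE 0.492, adjusted p = 0.0460)) in DC-like cells, and Eno1 in NPVM-like cells (-0.97 (SE 0.238, adjusted p = 0.0378)).

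Whether the effects differed between depots was tested as an interaction, and 0 of 222 member tests were called for the ob/ob effect (edgeR; 24 with an unadjusted p under 0.05, 3 calls with DESeq2) and 0 for the rosiglitazone effect (16, and 5 with DESeq2), against 0.421% and 0.254% over all genes. With the replicate block there were 6 and 11 calls, without a filter 9 and 9, and without WT-Veh replicate 1 of iWAT 6 and 4. The lowest p was that of Ldhb in preadipocyte-like cells. In iWAT Ldhb stood at 24.3 and 54.8 CPM (WT-Veh), 5.19 and 4.78 CPM (ob/ob-Veh) and 15.4 and 34.2 CPM (ob/ob-Rosi) there, and in eWAT at the levels given above, so that the ob/ob-Veh libraries were the lowest of iWAT and the highest of eWAT. On the log2 scale the effects differed between depots (iWAT minus eWAT) by -3.71 (SE 0.724, adjusted p = 0.0662) for ob/ob and by 3.71 (SE 0.722, adjusted p = 0.0742) for rosiglitazone, neither called, and with the replicate block both were called, at -3.65 and 3.72. Gapdh in DC-like cells followed for the ob/ob effect (-3.27 (SE 0.937, adjusted p = 0.184)) and Pdk3 in NPVM-like cells (-1.75 (SE 0.569, adjusted p = 0.232)). For the rosiglitazone effect it was Pfkfb4 in DC-like cells (-3.03 (SE 0.769, adjusted p = 0.0662)) and Gapdh in BC-like cells (3.84 (SE 1.097, adjusted p = 0.168)).

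Of the 32 members, 16 (50%) were called in at least 1 class in the ob/ob-Veh against WT-Veh or ob/ob-Rosi against ob/ob-Veh comparisons, 21 (65.6%) in any of the 9 comparisons, and 11 in none. Of all genes tested in a class, 36.9% and 44.4% were, and genes differ in the number of classes they were tested in. The 11 were Hk1, Gpi1, Pfkl, Pfkm, Aldoc, Pgk1, Pdk1, Pdk2, Pgm1, Pgm2 and Minpp1, of which Gpi1 and Pgk1 were tested in every class of both depots. Pgk1, the first ATP-yielding step and a neighbor of Gapdh in the pathway, stood at 97.9 and 169 CPM (WT-Veh), 114 and 89.6 CPM (ob/ob-Veh) and 164 and 177 CPM (ob/ob-Rosi) in NPVM-like cells of iWAT (log2 change -0.78, SE 0.376, adjusted p = 0.213 for ob/ob-Veh against WT-Veh), the cells in which Gapdh and Eno1 fell. In proliferating macrophage-like cells of eWAT Pgk1 stood at 273 and 273 CPM (WT-Veh), 169.9 and 196 CPM (ob/ob-Veh) and 203 and 313 CPM (ob/ob-Rosi) (log2 change -0.75, SE 0.345, adjusted p = 0.129), beside the called falls of Aldoa, Tpi1, Pkm and Ldha. Steps of one linear pathway were thus called in the same cells as steps that were not, and a miss of the threshold does not show that a level was unchanged. Low-level members were often untested: classes held between 11 and 32 tested members in eWAT and between 10 and 31 in iWAT. Slc2a1, Slc2a3, Pfkm, Pfkfb3, Pkm, Slc16a1 and Minpp1 each overlap another annotated gene on the same strand, where reads can be assigned to neither. The symbols Pgm1 and Pgm2 follow the deposited files, which use them the other way round from the current annotation.

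Genes around the pathway were read from lists fixed by function. Over all genes, 5.54% of tests in eWAT and 2.69% in iWAT were called in ob/ob-Veh against WT-Veh. In ob/ob-Rosi against ob/ob-Veh it was 4.94% and 6.07%. The counts of each list that follows are to be read against these shares, and several lists lie near or below them. Among 7 pentose phosphate genes, which branch off after hexokinase, the ob/ob-Veh against WT-Veh comparison gave 2 calls higher and 6 lower of 76 tests in eWAT and 0 calls higher and 3 lower of 54 tests in iWAT, and ob/ob-Rosi against ob/ob-Veh 8 calls higher and 1 lower of 76 tests and 8 calls higher and 0 lower of 54 tests. Pgls, the lactonase of that branch, moved in the most classes, at 208 and 191 CPM (WT-Veh), 84.0 and 82.4 CPM (ob/ob-Veh) and 175 and 212 CPM (ob/ob-Rosi) in EC-like cells of eWAT (log2 change -1.39, SE 0.246, adjusted p = 0.01499; under the drug log2 change 1.34, SE 0.244, adjusted p = 0.0142). Among 16 TCA cycle genes the counts were 0 calls higher and 6 lower of 172 tests and 0 calls higher and 5 lower of 117 tests for ob/ob-Veh, and 4 calls higher and 0 lower of 172 tests and 10 calls higher and 0 lower of 117 tests for the drug. Among 11 genes of pyruvate entry into mitochondria they were 2 calls higher and 1 lower of 107 tests and 0 calls higher and 3 lower of 75 tests, then 1 call higher and 2 lower of 107 tests and 5 calls higher and 1 lower of 75 tests. Mpc1, a subunit of the pyruvate carrier, stood at 71.5 and 102 CPM (WT-Veh), 28.8 and 29.5 CPM (ob/ob-Veh) and 117 and 110.1 CPM (ob/ob-Rosi) in NPVM-like cells of iWAT (log2 change -1.96, SE 0.356, adjusted p = 0.0171; under the drug log2 change 2.30, SE 0.349, adjusted p = 0.00539), and its partner Mpc2 fell and rose with it (log2 change -1.90, SE 0.436, adjusted p = 0.0281; log2 change 2.09, SE 0.430, adjusted p = 0.00962).

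Regulators of the pathway, of which Txnip, Vhl and Hif1an are not transcription factors, were read in the same way. Among 10 regulators the counts were 4 calls higher and 0 lower of 88 tests and 0 calls higher and 0 lower of 64 tests for ob/ob-Veh in eWAT and iWAT, and 0 calls higher and 5 lower of 88 tests and 0 calls higher and 3 lower of 64 tests for the drug. Hif1a, the oxygen-regulated subunit of HIF-1, stood at 43.4 and 42.0 CPM (WT-Veh), 275 and 196 CPM (ob/ob-Veh) and 61.5 and 37.2 CPM (ob/ob-Rosi) in proliferating macrophage-like cells of eWAT (edgeR, log2 change 2.35, SE 0.361, adjusted p = 1.17e-04). Under the drug the log2 change was -2.14 (edgeR, SE 0.357, adjusted p = 3.92e-04). The ob/ob-Veh values rest on 69 and 22 cells, in a class where 19.8% of all genes were called in ob/ob-Veh against WT-Veh. The LAM, NPVM and dissociation sums given above for these cells moved in the same libraries, and their part in the Hif1a change was not tested. The growth factor-induced regulator Myc stood at 25.6 and 32.3 CPM (WT-Veh), 294.7 and 222 CPM (ob/ob-Veh) and 22.5 and 20.3 CPM (ob/ob-Rosi) in progenitor-like cells of eWAT, called in both comparisons (log2 change 3.15, SE 0.325, adjusted p = 1.21e-04; under the drug log2 change -3.59, SE 0.339, adjusted p = 9.49e-05). The cells came from different clusters: 96.9% of the WT-Veh and 94.2% of the ob/ob-Rosi ones lay in a cluster led by Sfrp4 and Mfap4, and 43.5% of the ob/ob-Veh ones in one led by Pi16 and Ackr3. Myc stood beside Il6 and Ptgs2 among the 10 leading genes of a further progenitor-like cluster, to which the ob/ob-Veh libraries gave 729 and 286 of 1034 cells. Among 20 HIF-1 targets outside the members the counts were 9 calls higher and 5 lower of 166 tests and 2 calls higher and 2 lower of 115 tests, then 3 calls higher and 12 lower of 166 tests and 8 calls higher and 3 lower of 115 tests, and Bhlhe40, also a gene of activated leukocytes, gave 8 of the 14 eWAT calls of ob/ob-Veh against WT-Veh, 7 higher and 1 lower. The list's median was 0.02 in that comparison, where the members' medians were negative.

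Among 11 glycogen genes the counts were 0 calls higher and 2 lower of 104 tests and 0 calls higher and 0 lower of 72 tests, then 2 calls higher and 0 lower of 104 tests and 1 call higher and 1 lower of 72 tests, and among 8 other glucose and hexose carriers 1 call higher and 0 lower of 27 tests and 0 calls higher and 0 lower of 25 tests, then 0 calls higher and 1 lower of 27 tests and 0 calls higher and 0 lower of 25 tests. Among 22 genes of gluconeogenesis and side branches they were 4 calls higher and 6 lower of 111 tests and 3 calls higher and 2 lower of 83 tests, then 2 calls higher and 3 lower of 111 tests and 2 calls higher and 3 lower of 83 tests. Pck1, an adipocyte gene of glyceride synthesis as well as of gluconeogenesis, stood at 1.00 and 0.693 CPM (WT-Veh), 46.8 and 34.6 CPM (ob/ob-Veh) and 0 and 0.201 CPM (ob/ob-Rosi) in EC-like cells of eWAT (log2 change 5.50, SE 0.544, adjusted p = 7.01e-04), where the adipocyte genes given above moved in the same libraries. The 15 genes of the dissociation response gave 36 calls higher and 2 lower of 164 tests and 7 calls higher and 2 lower of 118 tests for ob/ob-Veh, and 1 call higher and 46 lower of 164 tests and 3 calls higher and 12 lower of 118 tests for the drug. In eWAT these were the most calls among the 9 lists around the pathway. The PPARγ targets, read apart from them, gave 6 higher and 37 lower of 108 tests there for ob/ob-Veh.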

How the data were processed

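Single-cell RNA-seq libraries were made by the authors from SVF with 10x Genomics 3′ v3.1 chemistry, and reads were demultiplexed (bcl2fastq 2.19.1.403), aligned to mm10 and counted with Cell Ranger 3.0.2. The authors deposited a matrix of raw UMI counts (genes by barcodes) per library, neither normalized nor pooled. UMIs remove PCR copies, and the 3′ tags do not tell transcript isoforms apart. Columns of other samples in the files numbered 0.

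Cells were kept if they had 700 to 22000 UMIs, expressed 200 to 6000 genes and had a mitochondrial share under 25%. Counts were clustered per depot on 2000 variable genes and 25 principal components (15 for APC-like cells) by the Leiden algorithm at resolution 1, with 0.6 within APC-like cells (scanpy 1.11.5, anndata 0.12.19, leidenalg 0.10.2, igraph 0.11.9, pandas 2.3.3, numpy 2.4.6, scikit-learn 1.9.0, scipy 1.17.1, Python 3.11.15; figures with matplotlib 3.10.9). Members and genes of the other lists were left out of the variable genes. Doublets stayed in, and an alternative took out those above Scrublet's automatic threshold or, in the 4 libraries where that called 0% to 0.0686%, the highest scores up to an expected 6%. No correction for free RNA was made.

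UMIs were summed per library and class with at least 20 cells, in classes where all groups had 2 such libraries, and tested with edgeR 4.0.16 in R 4.3.3 (TMM, filterByExpr, quasi-likelihood test without replicate block), after a test on simulated data. Groups came from the labels. P-values measure the spread between libraries. Alternatives were DESeq2 1.42.0, library size alone, no filter, no minimum change, a replicate block, resolution 0.5, cells thinned to 700 UMIs, doublets removed and each library left out. Taking APC-like cells together and leaving out classes with a library under 100 cells were added after seeing the data. A left-out library leaves 1 in its group, assumed to vary like the others.

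The members, the lists and the rules were chosen with earlier results of these data known. In each comparison, up to 6 members called in the most classes were named (at least 3 by p where fewer were called), and up to 3 genes per list, of which the text prints some; other called members were added after their values were seen. No gene's p was adjusted over the list alone.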

Additional observations from a re-analysis of the deposited data

How the results depend on the processing

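Of the named member changes that were recomputed, none turned its direction, but counts of calls and some medians did move. Without ob/ob-Rosi replicate 2 the eWAT member medians of ob/ob-Rosi against WT-Veh went from above 0 to below 0 in 11 of 11 classes (-0.563 to -0.112), and in iWAT they lay below 0 in 8 of 8 without WT-Veh replicate 1 and in 2 of 8 without replicate 2. Thinning moved 15 group means of the summed share by over 1 SD and 42 by less, and turned the order of 2 groups in 5 tested classes: iWAT BC-like (ob/ob-Rosi 0.105%, ob/ob-Veh 0.114%), eWAT preadipocyte-like (ob/ob-Veh 0.181%, WT-Veh 0.177%) and, for ob/ob-Rosi against WT-Veh, eWAT EC-like (0.223%, 0.227%), iWAT DC-like (0.241%, 0.237%) and iWAT progenitor-like cells (0.159%, 0.165%). Deviations of same-numbered libraries correlated from -0.0766 to 0.614. All pairs of groups passed 0.1 in 6 of 11 eWAT, 0 of 8 iWAT and, between depots, 4 of 8 classes. In iWAT the split went by pair of groups. Correlations there ran from 0.0895 to 0.614 for WT-Veh with ob/ob-Rosi. They ran from -0.0766 to 0.15 for WT-Veh with ob/ob-Veh and from -0.0581 to 0.0669 for ob/ob-Veh with ob/ob-Rosi. Pairing by number thus held in some classes and some pairs of groups only. Counts that moved by over 1.5 times are given in this order: the comparison of ob/ob-Veh with WT-Veh is the first, that of ob/ob-Rosi with ob/ob-Veh the second and that of ob/ob-Rosi with WT-Veh the third. In eWAT, with 17, 15 and 1 calls, there were 43, 47 and 2 without a filter on low counts and 45, 44 and 2 with the replicate block. DESeq2 gave 24 in the second and 2 in the third, thinned cells 5 and 0, and library size alone and removal of doublets 0 in the third. Leaving out classes with a library under 100 cells gave 6 in the first and 4 in the second. In iWAT, with 7, 11 and 0 calls, there were 20, 30 and 1 by DESeq2, 27, 40 and 5 without a filter, and 17 and 31 in the first and second with the replicate block. Resolution 0.5 gave 2 in the third, and leaving out classes under 100 cells gave 6 in the second. Between depots, the 20 calls became 33 without a filter, 48 with the replicate block, 7 with thinned cells and 13 without classes under 100 cells. The ob/ob interaction went from 0 calls to 3 by DESeq2, 9 without a filter, 6 with the replicate block and 1 at resolution 0.5, and the rosiglitazone interaction to 5, 9, 11 and 1. Leaving out 1 library gave 6 to 35, 2 to 72 and 0 to 1 calls in eWAT, 0 to 48, 0 to 50 and 0 to 10 in iWAT, 7 to 48 between depots, and 0 to 6 and 0 to 4 for the interactions. Of those named values under an alternative, 450 stayed on their side of the threshold, 34 passed it newly and 78 no longer did. Thinning, doublet removal, the filter, resolution and left-out libraries change the cells, genes or libraries tested by construction, and otherwise the cause was not tested.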

Other observations

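Some classes were too rare for a test and are given as values. Neutrophil-like cells of iWAT reached the minimum of 20 cells with WT-Veh (40 and 39 cells) and ob/ob-Rosi (67 and 31) but not with ob/ob-Veh (6 and 6, no values given). They held the glucose carrier Slc2a3 at 301 and 125 CPM and 303 and 209 CPM, on 13, 9, 30 and 11 UMIs. The mean in T/NK-like cells, the highest of the tested iWAT classes, was 65.9 CPM. Pfkfb4 was read in the neutrophil-like cells at 46.3 and 55.4 CPM and 172 and 76.1 CPM, on 2, 4, 17 and 4 UMIs, where its highest mean in a tested iWAT class was 24.5 CPM. These differences between classes were not tested.

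Proliferating macrophage-like cells of iWAT had 1 ob/ob-Veh library with enough cells (35). Gapdh stood at 892 and 1297 CPM (WT-Veh), 157 CPM (ob/ob-Veh) and 715 and 1052 CPM (ob/ob-Rosi) in them, and Hk2, on 11 to 47 UMIs, at 42.2 and 15.8, 139 and 29.1 and 29.8 CPM. LAM-like cells of iWAT, likewise with 1 ob/ob-Veh library (36 cells), held Pkm at 422 and 695 CPM (WT-Veh), 299 CPM (ob/ob-Veh) and 437 and 698 CPM (ob/ob-Rosi). Mural-like cells of eWAT, with 29 to 51 cells in 4 libraries, held Aldoa at 843 CPM (WT-Veh), 569.7 and 502 CPM (ob/ob-Veh) and 1669.8 CPM (ob/ob-Rosi), where the highest mean of a tested eWAT class was 425 CPM. The same cells carried adipocyte transcripts: the adipocyte genes summed to 1748, 2691, 8873 and 3117 CPM in these libraries against at most 826 CPM in any library of another eWAT class, Car3, Cfd, Cidec and Adipoq stood among the 10 leading genes of the cluster, and their part was not tested.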
